A study of Mus musculus with 7 samples.

Results

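The Schlafen genes Slfn1, Slfn2, Slfn3, Slfn4, Slfn5, Slfn8 and Slfn9 were described across 7 arrays of mouse macrophages grown from bone marrow. All 7 genes had at least 1 probe set that named no other gene, 11 such probe sets in all, out of 34945 probe sets with exactly 1 gene symbol that stand for 18193 genes. For each gene the brightest of its probe sets was used, and the others are given beside it. The family was chosen by the measured values of these same arrays, in which Slfn1 and Slfn4 stood far above naive cells after pretreatment, so every difference below is a description and carries no test.

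The cultures received ligands in 2 steps, for 24 h and then for 3 h. Pam3CSK4 is a synthetic triacylated lipopeptide sensed by Toll-like receptor 2 together with Toll-like receptor 1. MDP, muramyl dipeptide, is a fragment of bacterial cell wall peptidoglycan sensed inside the cell by Nod2. The 7 groups were Pam3CSK4 then Pam3CSK4, MDP then Pam3CSK4, Pam3CSK4 then MDP, MDP then MDP, naive cells given Pam3CSK4, naive cells given MDP, and naive unstimulated cells. Naive cultures had nothing in the first step, and the unstimulated culture had nothing in either step. The labels give 10 mg/ml for MDP and 1 mg/ml for Pam3CSK4, and these units are repeated here as written there. No culture was pretreated and then left without a second ligand, so what the first ligand alone left behind cannot be told apart from the answer to the second. The mouse strain and the culture medium are not given in the sources used here. The study asked which genes induced in naive cells are dampened in tolerant, pretreated cells, and took 3-fold for induction and more than 2-fold for dampening.

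Each group was a single array, so no difference below has a replicate check, an error or a p-value. The values are log2 expression per probe set, and a difference of 1 is 2-fold. Array medians lay between 5.48 and 5.55, and a value under the median of its array was read as not distinguishable from background. All 9 measured macrophage markers, among them Adgre1, Csf1r and Cd68, lay above the array median on all 7 arrays. The signal of 3 probe sets for 18S ribosomal RNA was 1.70 higher on the Pam3CSK4 then Pam3CSK4 array than on the unstimulated array, against 0.28 to 0.48 higher on the other 5 arrays. Its part in the Schlafen values was not tested.

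Schlafen proteins are a mammalian family known for restraining cell growth and virus replication, and many of its genes answer to type I interferon. Mouse members fall into short forms (Slfn1 and Slfn2), intermediate forms (Slfn3 and Slfn4) and long forms with a helicase-like part (Slfn5, Slfn8 and Slfn9). The core they share resembles a nuclease fold, and several members are known to cut or bind transfer RNA. In macrophages, ligands of Toll-like receptors are known to raise several of these genes.

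The family sits in 1 cluster on chromosome 11, from 82951349 to 83286726 in GRCm38.p6, the build of the RefSeq gene table used for positions. The order along the chromosome is Slfn5, Slfn9, Slfn8, Slfn10-ps, Slfn2, Slfn1, Slfn4, Slfn3 and Slfn14. Slfn9 and Slfn8 lie on the minus strand with Slfn14, and the other members described here lie on the plus strand. Promoter windows of 300 bases, with 250 before and 50 after the annotated start, were found for all 7 members in RefSeq. The windows of 4 members are shown whole because these genes form the contrast that runs through the values: Slfn1 and Slfn4, which differed most between pretreated and naive cells, and Slfn8 and Slfn9, 2 long members with smaller differences. They are written 5′ to 3′ on the strand of the gene, at chr11:83116570-83116869 (+) for Slfn1, chr11:83174936-83175235 (+) for Slfn4, chr11:83020761-83021060 (-) for Slfn8 and chr11:82991781-82992080 (-) for Slfn9.
Slfn1: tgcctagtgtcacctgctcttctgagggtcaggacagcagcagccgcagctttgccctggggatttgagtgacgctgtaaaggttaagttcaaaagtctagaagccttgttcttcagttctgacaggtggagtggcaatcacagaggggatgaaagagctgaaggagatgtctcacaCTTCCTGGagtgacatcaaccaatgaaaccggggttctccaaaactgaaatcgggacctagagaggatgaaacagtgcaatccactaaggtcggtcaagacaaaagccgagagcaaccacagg
Slfn4: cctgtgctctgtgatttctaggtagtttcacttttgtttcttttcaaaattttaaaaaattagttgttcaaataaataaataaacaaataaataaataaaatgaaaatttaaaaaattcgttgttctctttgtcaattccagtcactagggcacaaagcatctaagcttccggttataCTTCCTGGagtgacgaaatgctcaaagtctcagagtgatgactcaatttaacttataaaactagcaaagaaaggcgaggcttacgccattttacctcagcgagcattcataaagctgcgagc
Slfn8: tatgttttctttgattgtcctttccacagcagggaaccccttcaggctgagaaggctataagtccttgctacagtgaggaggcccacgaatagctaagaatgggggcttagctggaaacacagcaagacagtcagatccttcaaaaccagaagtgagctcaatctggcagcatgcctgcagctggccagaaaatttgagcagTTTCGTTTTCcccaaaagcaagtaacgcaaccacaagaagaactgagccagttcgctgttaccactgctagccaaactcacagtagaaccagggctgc
Slfn9: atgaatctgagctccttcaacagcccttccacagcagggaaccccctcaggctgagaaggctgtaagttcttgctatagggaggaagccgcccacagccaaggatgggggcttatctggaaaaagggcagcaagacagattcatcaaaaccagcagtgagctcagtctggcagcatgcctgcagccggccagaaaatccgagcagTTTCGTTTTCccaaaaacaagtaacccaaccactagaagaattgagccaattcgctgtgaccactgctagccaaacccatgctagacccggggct
Capitals mark the matches to 2 motifs described next.

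The first motif was GAAANNGAAA, the core of the interferon-stimulated response element, searched on both strands. It was present in the windows of Slfn5, Slfn8 and Slfn9, 3 of 7 members, against 3.99% of the 27025 genes with a promoter window in the table. The match lay 155 to 146 bases before the annotated start in Slfn5, 48 to 39 before it in Slfn8 and 45 to 36 before it in Slfn9. In Slfn8 and Slfn9 it reads on the opposite strand, so the printed letters are its reverse complement. Slfn8 has 2 annotated windows, and both hold the same site. The second motif, CTTCCTGG, holds the core letters of an ETS factor site on the opposite strand and was picked after these promoters had been read. It was present in Slfn1, Slfn2, Slfn3 and Slfn4, 4 of 7 members, against 4.71% of all genes with a window. Short stretches around the matches of the remaining 3 members show the same letters, at chr11:83065046-83065077 (+) for Slfn2, chr11:83191277-83191308 (+) for Slfn3 and chr11:82951937-82951966 (+) for Slfn5.
Slfn2: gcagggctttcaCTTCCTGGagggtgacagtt
Slfn3: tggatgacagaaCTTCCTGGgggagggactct
Slfn5: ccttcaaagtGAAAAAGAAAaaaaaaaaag
Capitals again mark the motif.

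The first motif was thus in the 3 long members and the second in the 4 shorter ones, with no member holding both. Since the second motif was picked after these promoters had been read, nothing is read from this split. The windows of Slfn8 and Slfn9 were near copies, with 80.5% identical aligned columns, whereas the other 20 pairs of windows had 41.9 to 49.4%. Slfn1 and Slfn4 windows were 42.9% identical, but shared an unbroken run of 15 bases that contains the second motif, which lies 73 to 66 bases before the start in Slfn1 and 72 to 65 in Slfn4. Neither TTCNNNGAA, the gamma-activated sequence bound by STAT dimers, nor GGGNNTTTCC, a form of the kappa B site, was found in any of the 7 windows. TTCNNNGAA occurs in the windows of 9.55% of all genes and GGGNNTTTCC in those of 1.89%. A match or a missing match says only whether these letters stand in these windows.

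Among the short forms, Slfn1 differed most. Slfn1, the founding member, is known to slow the growth of T cells when overexpressed. Its brightest probe set (1418612_at) read 11.06 in Pam3CSK4 then Pam3CSK4, 9.46 in MDP then Pam3CSK4, 10.97 in Pam3CSK4 then MDP, 8.63 in MDP then MDP, 6.87 in naive cells with Pam3CSK4, 6.48 in naive cells with MDP and 5.71 in unstimulated cells. The 4 pretreated arrays were all higher than the 3 naive arrays, and the 2 with Pam3CSK4 as first ligand were the highest. The unstimulated value was just above the median of its array, 5.50, so folds over it stand on a level close to background.

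Against naive cells given the same second ligand, Slfn1 was 4.19 higher in Pam3CSK4 then Pam3CSK4 (18.2-fold), 2.59 higher in MDP then Pam3CSK4 (6.02-fold), 4.49 higher in Pam3CSK4 then MDP (22.5-fold) and 2.15 higher in MDP then MDP (4.43-fold). Of all 18193 genes, Slfn1 had the largest positive difference in both comparisons with MDP as first ligand. It was sixth in Pam3CSK4 then Pam3CSK4 and 14th in Pam3CSK4 then MDP. In bulk RNA, fewer or more cells expressing a gene and less or more RNA per cell cannot be told apart.

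These values hold for 1 of 2 probe sets of Slfn1. The other probe set (1447614_at) lay between 3.85 and 3.99, below the array median on all 7 arrays, with the same value on 5 of them. It gave no difference to compare. With the mean of both probe sets the Slfn1 difference from naive cells was 2.05 in Pam3CSK4 then Pam3CSK4, 1.26 in MDP then Pam3CSK4, 2.24 in Pam3CSK4 then MDP and 1.07 in MDP then MDP.

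Slfn2, the other short form, is known for keeping T cells and monocytes quiescent and for protecting transfer RNA from cleavage in activated T cells. Slfn2 (1450165_at) read 13.57 in Pam3CSK4 then Pam3CSK4, 13.96 in MDP then Pam3CSK4, 13.63 in Pam3CSK4 then MDP, 13.19 in MDP then MDP, 13.84 in naive cells with Pam3CSK4, 13.47 in naive cells with MDP and 12.69 in unstimulated cells. All 6 arrays with a ligand were above the unstimulated one, and pretreated and naive values overlapped. The Slfn2 difference from naive cells with the same second ligand was -0.27 in Pam3CSK4 then Pam3CSK4, 0.12 in MDP then Pam3CSK4, 0.16 in Pam3CSK4 then MDP and -0.28 in MDP then MDP. The highest value of any probe set in the table was 15.1.

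Of the intermediate forms, Slfn4 resembled Slfn1. Slfn4 is a myeloid member known to be regulated by interferon and to mark a population of suppressor cells in the inflamed stomach. Slfn4 (1427102_at) read 12.48 in Pam3CSK4 then Pam3CSK4, 10.04 in MDP then Pam3CSK4, 12.28 in Pam3CSK4 then MDP, 9.40 in MDP then MDP, 7.91 in naive cells with Pam3CSK4, 7.67 in naive cells with MDP and 7.32 in unstimulated cells. Pretreated and naive arrays did not overlap, and the order of the 7 arrays was the same as for Slfn1.

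Slfn4 was 4.58 higher in Pam3CSK4 then Pam3CSK4 than in naive cells with Pam3CSK4 (23.9-fold) and 2.13 higher in MDP then Pam3CSK4 (4.38-fold). It was 4.61 higher in Pam3CSK4 then MDP than in naive cells with MDP (24.4-fold) and 1.72 higher in MDP then MDP (3.30-fold). Of all genes its rank from the highest was 3 in both comparisons with Pam3CSK4 as second ligand, 12 in Pam3CSK4 then MDP and 7 in MDP then MDP. Unlike Slfn1, Slfn4 lay well above the array median in unstimulated cells. A probe set that names both Slfn4 and Slfn3 (1450322_s_at), which the choice of members left out, followed the same order of arrays. Its differences from naive cells with the same second ligand were smaller. They were 3.27 in Pam3CSK4 then Pam3CSK4, 1.25 in MDP then Pam3CSK4 and 3.22 in Pam3CSK4 then MDP. In MDP then MDP the difference was 0.58, under 2-fold, so the size of the Slfn4 difference depends on the probe set.

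Slfn3, the other intermediate form, is known from work on T cells and on gut epithelium. Its only probe set of its own (1421644_at) read 4.35 in Pam3CSK4 then Pam3CSK4, 4.18 in MDP then Pam3CSK4, 4.76 in Pam3CSK4 then MDP, 3.24 in MDP then MDP, 3.68 in both naive cultures with a ligand and 3.59 in unstimulated cells. All 7 values were below the array median, so Slfn3 was not distinguishable from background and no fold is given for it. In the counts below it stands as 1 of the 7 members with its deposited value.

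**Figure D1:**
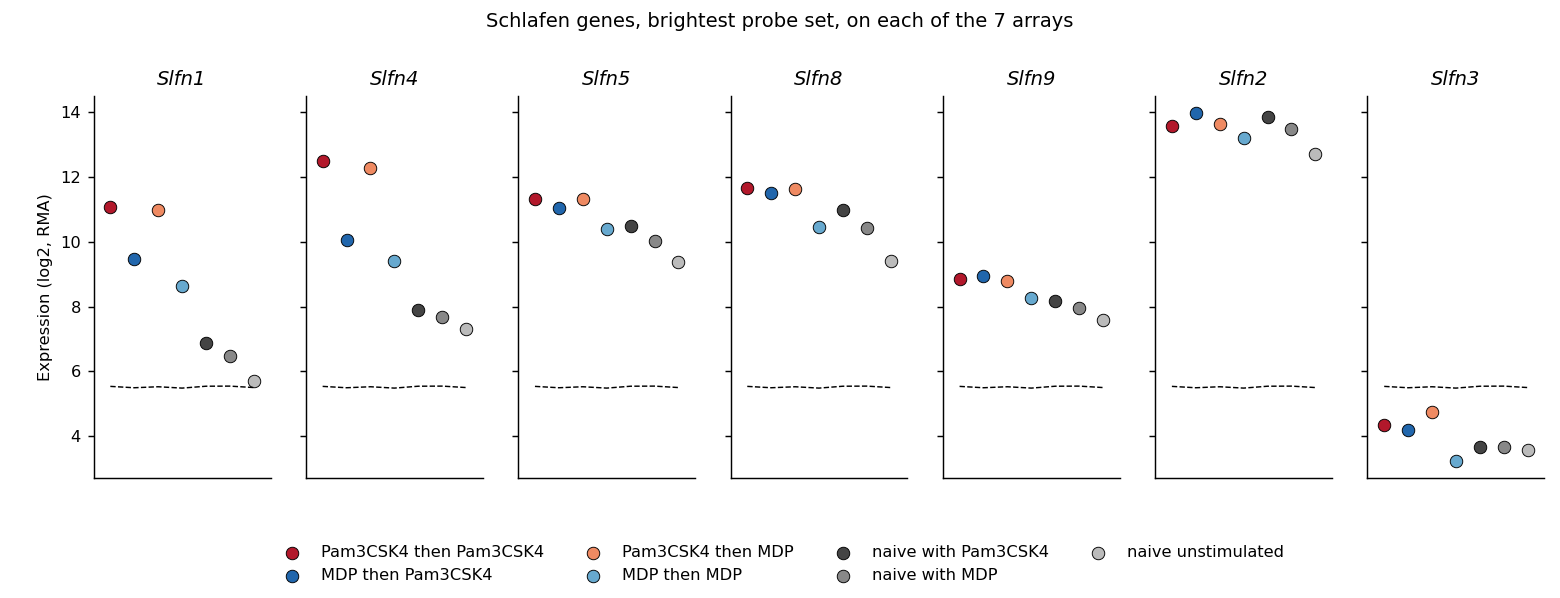
Log2 expression (RMA) of the brightest probe set of each Schlafen gene on the 7 arrays, 1 point per array, ordered from Pam3CSK4 then Pam3CSK4 at the left to naive unstimulated at the right. The dashed line is the median of all probe sets on each array. Slfn1 and Slfn4 are separated by pretreatment, from 8.63 up against 6.87 down for Slfn1, whereas Slfn2 lies between 12.69 and 13.96 throughout and Slfn3 stays under the line.

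The long forms differed less. Slfn5, whose human counterpart is known to restrict herpesvirus transcription, read 11.30 in Pam3CSK4 then Pam3CSK4, 11.02 in MDP then Pam3CSK4, 11.32 in Pam3CSK4 then MDP, 10.39 in MDP then MDP, 10.47 in naive cells with Pam3CSK4, 10.03 in naive cells with MDP and 9.38 in unstimulated cells (1456288_at). Slfn8, whose forced expression is known to impair T cell development, read 11.65 in Pam3CSK4 then Pam3CSK4, 11.50 in MDP then Pam3CSK4, 11.63 in Pam3CSK4 then MDP, 10.44 in MDP then MDP, 10.97 in naive cells with Pam3CSK4, 10.42 in naive cells with MDP and 9.40 in unstimulated cells (1451655_at). In both genes the MDP then MDP array lay below naive cells with Pam3CSK4, so pretreated and naive arrays overlapped, and the unstimulated array was the lowest.

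Slfn9, its neighbour in the cluster, read 8.86 in Pam3CSK4 then Pam3CSK4, 8.95 in MDP then Pam3CSK4, 8.80 in Pam3CSK4 then MDP, 8.27 in MDP then MDP, 8.18 in naive cells with Pam3CSK4, 7.97 in naive cells with MDP and 7.59 in unstimulated cells (1436472_at). Its 4 pretreated arrays were above its 3 naive arrays, by 0.09 between the closest pair, MDP then MDP and naive cells with Pam3CSK4. The closest pair of arrays in the series, Pam3CSK4 then MDP and Pam3CSK4 then Pam3CSK4, differed over all genes with a robust SD of 0.11, so gaps of this size are not told apart from the scatter between arrays.

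Against naive cells with Pam3CSK4, the difference in Pam3CSK4 then Pam3CSK4 was 0.83 for Slfn5, 0.68 for Slfn8 and 0.67 for Slfn9. In MDP then Pam3CSK4 the difference from the same naive array was 0.55 for Slfn5, 0.53 for Slfn8 and 0.77 for Slfn9. None of these 6 values reached 2-fold. Against naive cells with MDP, the difference in Pam3CSK4 then MDP was 1.29 for Slfn5, 1.21 for Slfn8 and 0.83 for Slfn9, and in MDP then MDP it was 0.35 for Slfn5, 0.02 for Slfn8 and 0.31 for Slfn9. Slfn5 and Slfn8 thus passed 2-fold in 1 of the 4 comparisons, with Pam3CSK4 first and MDP second.

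**Figure D2:**
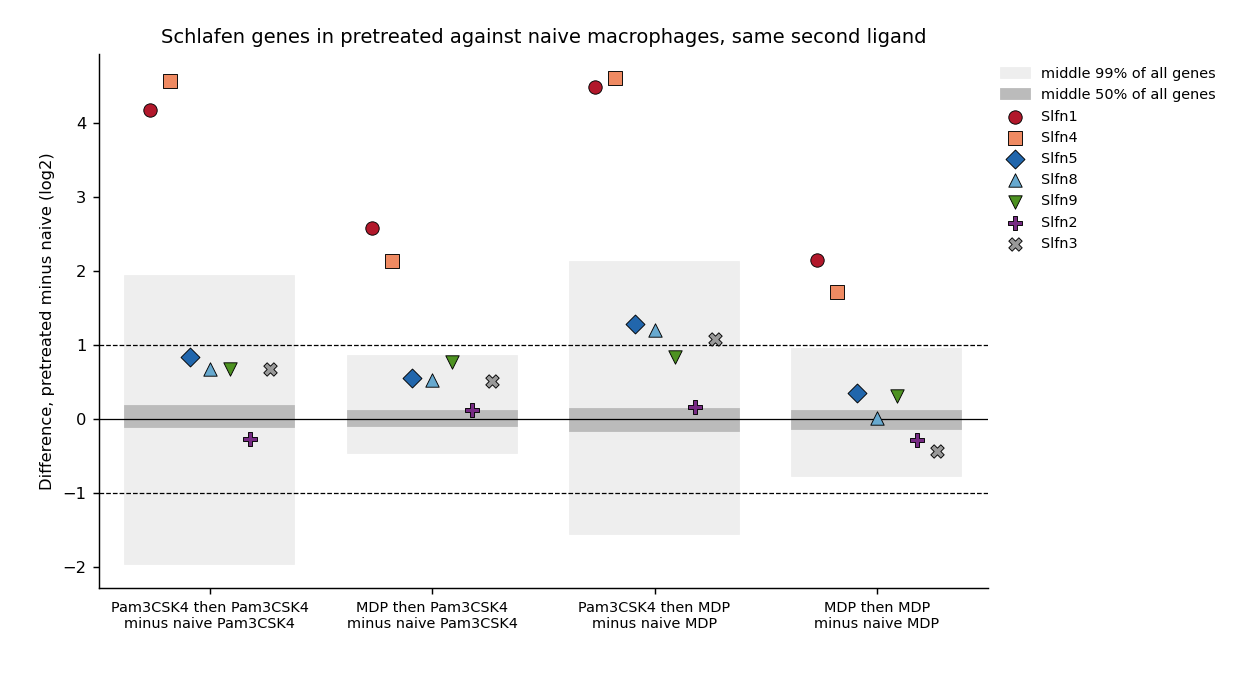
Log2 difference between pretreated and naive macrophages given the same second ligand, for each Schlafen gene (symbols) and for all 18193 genes (dark grey, the middle 50%; light grey, the middle 99%). Dashed lines mark 2-fold. Slfn1 and Slfn4 lie above the light grey range in all 4 comparisons, and the other 5 members lie within it; Slfn3 was below background on all arrays.

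**Figure D3:**
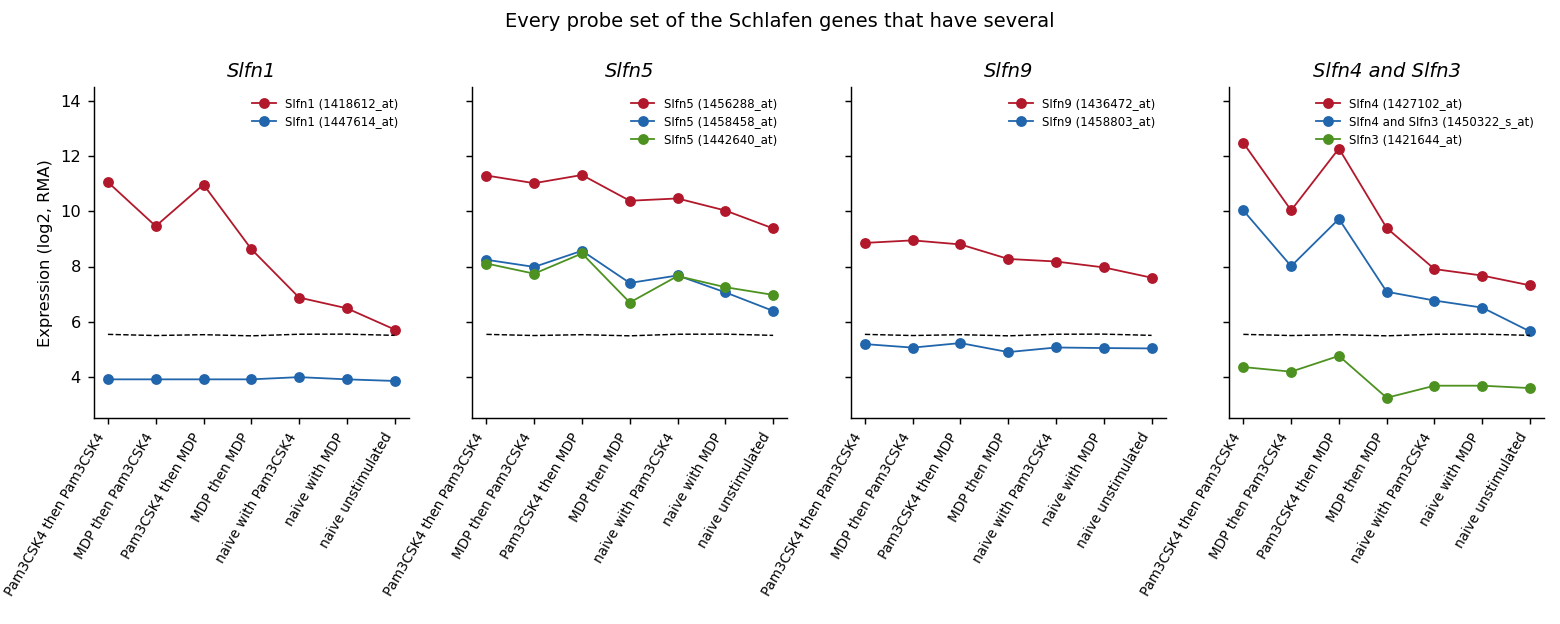
Log2 expression (RMA) of every probe set of Slfn1, Slfn5 and Slfn9, and of Slfn4, Slfn3 and the probe set naming both, on the 7 arrays from Pam3CSK4 then Pam3CSK4 at the left to naive unstimulated at the right. The dashed line is the median of all probe sets on each array. The 3 probe sets of Slfn5 lie at different heights and are all highest in Pam3CSK4 then MDP, with 1442640_at lowest in MDP then MDP and the other 2 lowest in unstimulated cells, whereas the second probe sets of Slfn1 and Slfn9 are flat below the line.

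The further probe sets of the long forms bear on these values. Slfn5 had 2 more, of which 1458458_at read 8.24 in Pam3CSK4 then Pam3CSK4, 7.98 in MDP then Pam3CSK4, 8.57 in Pam3CSK4 then MDP, 7.40 in MDP then MDP, 7.67 in naive cells with Pam3CSK4, 7.06 in naive cells with MDP and 6.39 in unstimulated cells. The other, 1442640_at, read 8.11 in Pam3CSK4 then Pam3CSK4, 7.74 in MDP then Pam3CSK4, 8.47 in Pam3CSK4 then MDP, 6.69 in MDP then MDP, 7.65 in naive cells with Pam3CSK4, 7.25 in naive cells with MDP and 6.97 in unstimulated cells. All 3 Slfn5 probe sets were highest in Pam3CSK4 then MDP. On 1442640_at the MDP then MDP value was the lowest of the 7, a position the unstimulated array held on the other 2. The second probe set of Slfn9 (1458803_at) read 4.89 to 5.22, below the array median on all 7 arrays.

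In Pam3CSK4 then Pam3CSK4, 2 of 7 members were at least 2-fold higher than in naive cells with Pam3CSK4, where 2.41% of all genes were. In MDP then Pam3CSK4 the count was 2 of 7, against 0.297% of all genes. In both cases the 2 were Slfn1 and Slfn4, which also passed 3-fold. In Pam3CSK4 then MDP, 5 of 7 members were at least 2-fold higher than in naive cells with MDP, against 2.14% of all genes; these were Slfn1, Slfn4, Slfn5, Slfn8 and, below background, Slfn3. In MDP then MDP the count was 2 of 7, against 0.385% of all genes. Since the family was chosen on these contrasts, nothing is read from the distance to the background.

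No member was at least 2-fold lower in any of these 4 comparisons, the size the study took for dampening. The study asked this of genes induced 3-fold in naive cells, which no member was with the deposited values. No member could therefore count as dampened in the study's sense. Of all genes, 2.3% were at least 2-fold lower in Pam3CSK4 then Pam3CSK4, 0.022% in MDP then Pam3CSK4, 1.71% in Pam3CSK4 then MDP and 0.291% in MDP then MDP, each against naive cells with the same second ligand. The median difference of the 7 members was 0.68 in Pam3CSK4 then Pam3CSK4, 0.55 in MDP then Pam3CSK4, 1.21 in Pam3CSK4 then MDP and 0.31 in MDP then MDP. The median over all genes was within 0.01 of 0 in each of these comparisons.

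In naive cells after 3 h of ligand, the members stood in another order. The median difference of the 7 members from unstimulated cells was 1.09 with Pam3CSK4 and 0.65 with MDP. Slfn8 had the largest differences, 1.56 with Pam3CSK4 and 1.02 with MDP over unstimulated cells. Slfn1 was 1.16 higher with Pam3CSK4 and 0.77 higher with MDP, Slfn2 was 1.15 higher with Pam3CSK4 and 0.78 higher with MDP, and Slfn5 was 1.09 higher with Pam3CSK4 and 0.65 higher with MDP. Slfn9 was 0.59 higher with Pam3CSK4 and 0.37 higher with MDP. Slfn4, which differed by more than 4 log2 units after Pam3CSK4 pretreatment, was 0.59 higher with Pam3CSK4 and 0.36 higher with MDP, among the smallest differences of the 6 members above background. That holds for its own probe set. On the probe set that names both Slfn4 and Slfn3, the difference was 1.12 with Pam3CSK4, past 2-fold, and 0.87 with MDP.

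With Pam3CSK4, 4 of 7 members (Slfn1, Slfn2, Slfn5 and Slfn8) passed 2-fold over the unstimulated array, against 2.27% of all genes, and with MDP 1 of 7 (Slfn8), against 0.583% of all genes. At the study's 3-fold, the count was 0 of 7 with either ligand, against 1.28% of all genes with Pam3CSK4 and 0.22% with MDP. By that threshold and with the deposited values, no Schlafen gene was an induced gene of naive cells on these arrays. Slfn8 with Pam3CSK4 was just short of it, at 2.96-fold. Its difference ran from 1.52 to 1.83 over the other processing settings, the upper end past 3-fold. No member was at least 2-fold lower, against 1.95% of all genes with Pam3CSK4 and 0.17% with MDP. The Slfn8 difference with MDP was close to the threshold, at 0.97 when each array was centred on its median.

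Set against unstimulated cells, the pretreated arrays showed the whole range. Slfn1 was 5.35 higher in Pam3CSK4 then Pam3CSK4 (40.7-fold), 3.75 higher in MDP then Pam3CSK4 (13.5-fold), 5.26 higher in Pam3CSK4 then MDP (38.3-fold) and 2.92 higher in MDP then MDP (7.56-fold). Slfn4 was 5.17 higher in Pam3CSK4 then Pam3CSK4 (36.0-fold), 2.72 higher in MDP then Pam3CSK4 (6.60-fold), 4.97 higher in Pam3CSK4 then MDP (31.3-fold) and 2.08 higher in MDP then MDP (4.23-fold). Of the 7 members, 5 passed 2-fold over the unstimulated array in Pam3CSK4 then Pam3CSK4 (2.66% of all genes), 6 in MDP then Pam3CSK4 (3.03%), 6 in Pam3CSK4 then MDP (2.78%, Slfn3 below background among them) and 4 in MDP then MDP (0.39%). These comparisons share the unstimulated array with each other and with the naive comparisons above.

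Slfn1 and Slfn4 differed more with the first ligand than with the second. The first step lasted 24 h and the second 3 h, so ligand position and time of exposure cannot be told apart. With MDP second, Pam3CSK4 as first ligand gave 2.34 more Slfn1 and 2.89 more Slfn4 than MDP as first ligand. With Pam3CSK4 second, the same change of first ligand gave 1.60 more Slfn1 and 2.45 more Slfn4. Slfn8 differed by 1.19 with MDP second and by 0.15 with Pam3CSK4 second, while for Slfn5, Slfn9 and Slfn2 the difference was 0.94, 0.53 and 0.44 with MDP second and 0.28, -0.09 and -0.39 with Pam3CSK4 second. Counting Slfn3 below background, 4 of 7 members were at least 2-fold higher with Pam3CSK4 than with MDP as first ligand when MDP came second (1.91% of all genes), and 2 of 7 when Pam3CSK4 came second (1.34%).

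The choice of second ligand made a larger difference after MDP than after Pam3CSK4. In MDP then Pam3CSK4, the 6 members above background were 0.64 to 1.06 higher than in MDP then MDP, and 1 of 7 members, Slfn8, passed 2-fold (2.41% of all genes). In Pam3CSK4 then Pam3CSK4, the same 6 members lay between -0.05 and 0.20 of Pam3CSK4 then MDP, and 0 of 7 passed 2-fold (0% of all genes). In naive cells, Pam3CSK4 gave values 0.21 to 0.55 higher than MDP. Whether these differences between pretreatments exceed chance was not tested, since each group is 1 array.

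The rest of the cluster and the genes beside it were read on the same arrays. Slfn10-ps, annotated as a miscellaneous RNA between Slfn8 and Slfn2, read 7.92 in Pam3CSK4 then Pam3CSK4, 7.58 in MDP then Pam3CSK4, 7.64 in Pam3CSK4 then MDP, 7.59 in MDP then MDP, 7.19 in naive cells with Pam3CSK4, 7.25 in naive cells with MDP and 7.36 in unstimulated cells. Its differences from naive cells with the same second ligand were 0.34 to 0.73. Slfn14 had no probe set of its own in the table used.

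The nearest measured genes outside the cluster are Nle1, Unc45b and Unc45bos beside Slfn5, and Ap2b1, Rasl10b and Gas2l2 beyond Slfn14. Nle1, a nucleolar protein of ribosome assembly, differed from naive cells by -0.69 in Pam3CSK4 then Pam3CSK4, -0.32 in MDP then Pam3CSK4, -0.29 in Pam3CSK4 then MDP and -0.21 in MDP then MDP. Ap2b1, a subunit of the clathrin adaptor, differed by -0.01 to 0.17 in the same comparisons, and Rasl10b by -0.10 to -0.02. None of the 6 neighbours reached 2-fold in any of the 4 comparisons. Within the cluster, Slfn2 next to Slfn1 differed by -0.28 to 0.16, while Slfn1 and Slfn4, its 2 next measured genes, differed by 1.72 to 4.61.

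**Figure D4:**
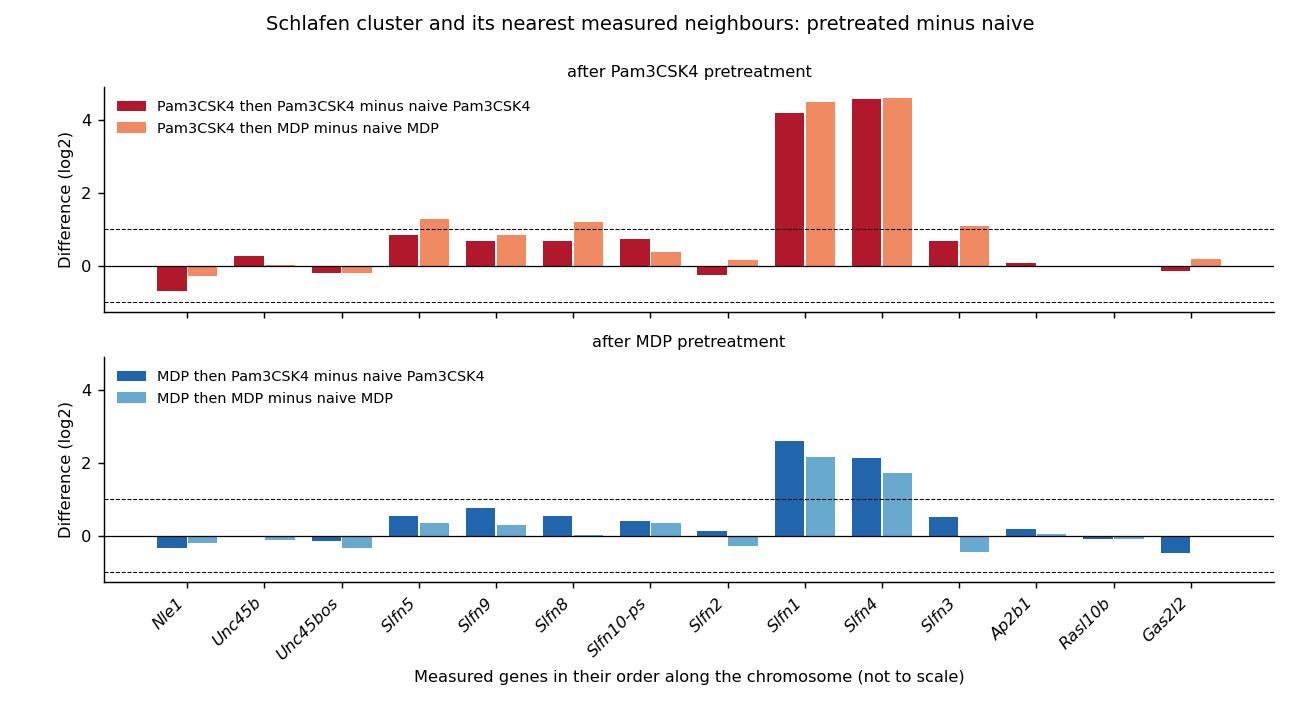
Log2 difference between pretreated and naive macrophages given the same second ligand, for the measured genes of the Schlafen cluster and the 3 annotated genes on either side, in their order along the chromosome (not to scale). The upper panel has Pam3CSK4 as first ligand and the lower panel MDP; dashed lines mark 2-fold. The tall bars are those of the adjacent genes Slfn1 and Slfn4, and no neighbour outside the cluster passes 2-fold; Slfn3, Unc45b and Unc45bos were below the array median on all arrays.

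A list of 30 antiviral interferon-stimulated genes, of which 27 were measured, was set beside the family. Against naive cells with the same second ligand, 20 of 27 were at least 2-fold higher in Pam3CSK4 then Pam3CSK4 with a median of 1.33, 13 in MDP then Pam3CSK4 with a median of 0.82, 24 in Pam3CSK4 then MDP with a median of 1.56, and 6 in MDP then MDP with a median of 0.52. None was 2-fold lower in these 4 comparisons. Over the whole gene table, the share past 2-fold upward was 2.41% in Pam3CSK4 then Pam3CSK4 and 0.297% in MDP then Pam3CSK4. It was 2.14% in Pam3CSK4 then MDP and 0.385% in MDP then MDP. Downward, in the same order, the share was 2.3%, 0.022%, 1.71% and 0.291%. With downward shares this small, the lack of lower genes among 27 says little. Isg20, an exonuclease that degrades viral RNA, differed by 3.26 in Pam3CSK4 then Pam3CSK4, 1.84 in MDP then Pam3CSK4, 3.54 in Pam3CSK4 then MDP and 1.43 in MDP then MDP. Irf7, the factor that amplifies type I interferon production, differed by 2.49 in Pam3CSK4 then Pam3CSK4, 1.73 in MDP then Pam3CSK4, 2.56 in Pam3CSK4 then MDP and 1.67 in MDP then MDP. Ifit1, which binds viral RNA caps, had the lowest value of the list in MDP then MDP, -0.73.

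In naive cells, 4 of the 27 genes were at least 2-fold higher with Pam3CSK4 and 9 with MDP, with medians of 0.74 and 0.59. Of all genes, 2.27% were at least 2-fold higher with Pam3CSK4 and 0.583% with MDP. Irf7 differed from unstimulated cells by 0.08 with Pam3CSK4 and 0.06 with MDP. Over unstimulated cells, all 27 genes passed 2-fold in Pam3CSK4 then Pam3CSK4 (2.66% of all genes) and in Pam3CSK4 then MDP (2.78%). In MDP then Pam3CSK4 25 did (3.03%), and 16 in MDP then MDP (0.39%). The largest difference on the list was that of Oasl1, an antiviral relative of the oligoadenylate synthetases, in all 4 of these: 4.09 in Pam3CSK4 then Pam3CSK4, 2.64 in MDP then Pam3CSK4, 4.32 in Pam3CSK4 then MDP and 1.78 in MDP then MDP. On their brightest probe sets Slfn1 and Slfn4 were above it in each. The probe set that names both Slfn4 and Slfn3 was above it only in Pam3CSK4 then Pam3CSK4, at 4.39. It was below Oasl1 at 2.37 in MDP then Pam3CSK4, 4.09 in Pam3CSK4 then MDP and 1.44 in MDP then MDP. The second probe set of Slfn1 was below the array median throughout.

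**Figure D5:**
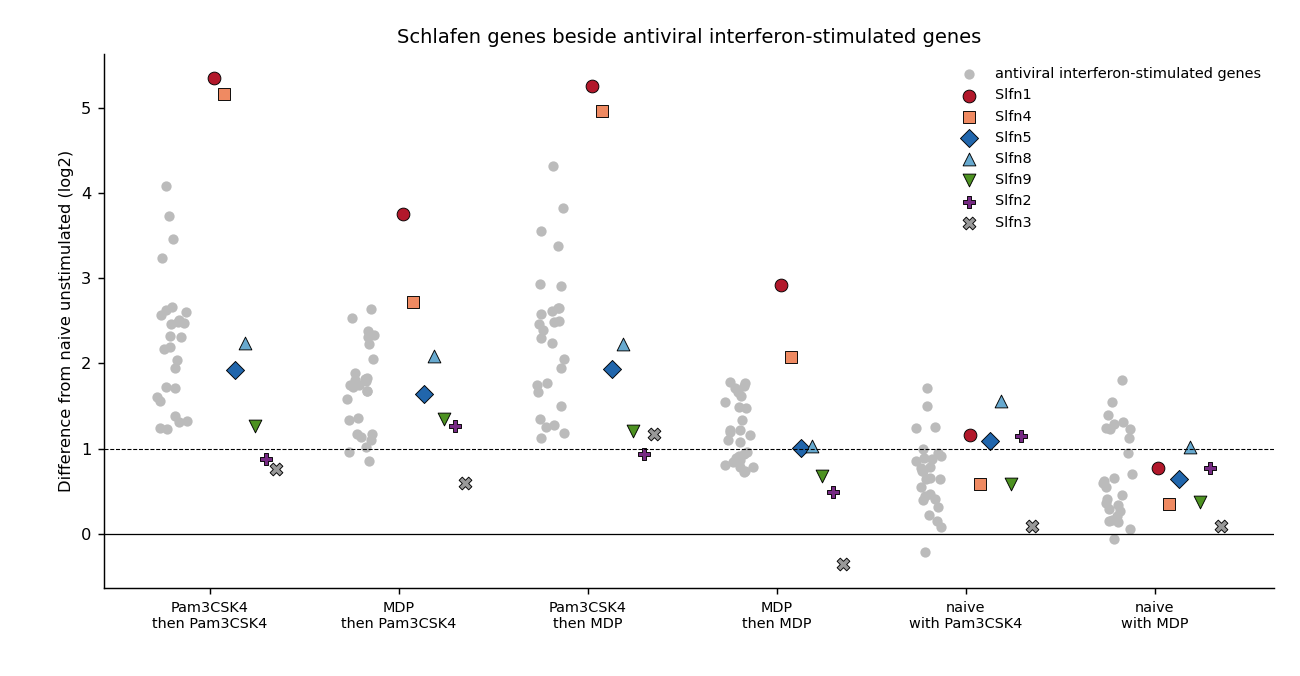
Log2 difference from naive unstimulated macrophages on each of the other 6 arrays, for 27 antiviral interferon-stimulated genes (grey points, spread sideways for legibility) and the 7 Schlafen genes (symbols). The dashed line marks 2-fold. Each Schlafen gene is shown by its brightest probe set only. On the 4 pretreated arrays Slfn1 and Slfn4 lie above every grey point, with 5.35 and 5.17 in Pam3CSK4 then Pam3CSK4. On the naive arrays they lie among the grey points. Slfn3 was below background.

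Of 19 measured ligands, receptors and signal transducers of the interferon pathway, few differed by 2-fold. The shares of all genes past 2-fold were 2.41% higher and 2.3% lower in Pam3CSK4 then Pam3CSK4, 0.297% and 0.022% in MDP then Pam3CSK4, 2.14% and 1.71% in Pam3CSK4 then MDP, and 0.385% and 0.291% in MDP then MDP. In Pam3CSK4 then Pam3CSK4, 2 were at least 2-fold higher and 1 lower than in naive cells with Pam3CSK4, with a median of 0.03, and in MDP then Pam3CSK4 there were 0 either way, with a median of 0.07. In Pam3CSK4 then MDP, 3 were higher and 0 lower than in naive cells with MDP, with a median of 0.23, and in MDP then MDP 0 were higher and 1 lower, with a median of -0.19. Stat2, a signal transducer of the type I receptor, differed by 1.96 in Pam3CSK4 then Pam3CSK4 and 2.20 in Pam3CSK4 then MDP. Socs1, a feedback inhibitor, differed by 1.09 in Pam3CSK4 then Pam3CSK4 and 2.17 in Pam3CSK4 then MDP, and Ifnb1, the interferon beta gene, by 0.88 in Pam3CSK4 then Pam3CSK4 and 1.68 in Pam3CSK4 then MDP. Jak2, a receptor-associated kinase, had -1.13 in Pam3CSK4 then Pam3CSK4, and the transcription factor Irf1 had -1.04 in MDP then MDP. In naive cells 4 of the 19 were at least 2-fold higher with Pam3CSK4, led by Jak2 at 2.69, and 2 with MDP, Irf1 at 1.43 and Socs1 at 1.10. The shares of all genes were 2.27% with Pam3CSK4 and 0.583% with MDP.

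Because the family is known for restraint of growth, 22 measured genes of quiescence and proliferation were read as well, beside the same shares of all genes. In Pam3CSK4 then Pam3CSK4, 5 were at least 2-fold higher and 2 lower than in naive cells with Pam3CSK4, with a median of 0.06. Tob1, an antiproliferative factor, differed by 1.61, and Myc, a driver of growth, by -1.29. In MDP then Pam3CSK4 there were 0 either way, with a median of 0.21. In Pam3CSK4 then MDP, 2 were higher and 1 lower than in naive cells with MDP, with a median of -0.02, and the proliferation marker Mki67 had -1.17. In MDP then MDP, 1 was higher and 0 lower, Mcm5, a helicase subunit of DNA replication, at 1.01, with a median of 0.46. Ccnd1, the cyclin D1 gene, differed by 0.92 in Pam3CSK4 then Pam3CSK4 and by -0.998 in Pam3CSK4 then MDP. These 2 differences stand on different naive arrays, and Ccnd1 itself read 12.17 in Pam3CSK4 then Pam3CSK4, 11.91 in Pam3CSK4 then MDP, 11.25 in naive cells with Pam3CSK4 and 12.90 in naive cells with MDP.

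The genes whose profiles over the 7 arrays came nearest to each member were named by the root mean square difference after each gene's own mean was taken off, among 1936 genes spanning at least 1 log2 unit. For Slfn1 the nearest were Slfn4 (0.34), Ifi213 (0.45) and Isg20 (0.56). The nearest to Slfn4 were Slfn1 (0.34), Ifi213 (0.50) and Isg20 (0.52). For Slfn5 they were Trafd1 (0.032), Parp12 (0.10) and Samd9l (0.11), and for Slfn8 they were Parp14 (0.098), Ifi47 (0.14) and Dtx3l (0.14). Slfn9 came nearest to Slc43a3 (0.078), Trim12a (0.084) and Nampt (0.10), and Slfn2 to Cers6 (0.10), Eml2 (0.11) and Zdhhc2 (0.11).

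Slfn1 and Slfn4 were each other's nearest gene of the 1936, and no other member came within 1.40 of either. Slfn5 and Slfn8 were 0.18 apart, and Slfn9 was 0.23 from Slfn5. Slfn8 and Slfn9, whose promoter windows are near copies, were 0.35 apart, farther than either was from Slfn5. Slfn2 was at least 0.32 from every other member. Such distances are descriptions over 7 arrays that share cultures of 1 kind, and larger spans give larger distances.

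Markers of other cells were read on every array. Of 9 measured neutrophil and granulocyte markers, 7 lay above the array median on all 7 arrays. The summed linear signal of these 9 was 8792 in Pam3CSK4 then Pam3CSK4, 7442 in MDP then Pam3CSK4, 9236 in Pam3CSK4 then MDP, 6875 in MDP then MDP, 5954 in naive cells with Pam3CSK4, 5479 in naive cells with MDP and 5492 in unstimulated cells, so it was higher on all 4 pretreated arrays, as Slfn1 and Slfn4 were. The brightest of the 9 carried much of this sum, at 12.13 in Pam3CSK4 then Pam3CSK4 and 11.08 in naive cells with Pam3CSK4. Against naive cells with the same second ligand, the median difference of the 9 was 0.17 in Pam3CSK4 then Pam3CSK4 and 0.25 in MDP then Pam3CSK4. It was 0.04 in Pam3CSK4 then MDP and 0.19 in MDP then MDP. S100a8, a granulocyte calcium-binding protein that macrophages can also make, differed by 1.05 in Pam3CSK4 then Pam3CSK4 and 1.17 in Pam3CSK4 then MDP, whereas Ltf, a granule protein, had -1.16 in Pam3CSK4 then Pam3CSK4 and -0.70 in Pam3CSK4 then MDP. The part of these cells in the Schlafen values was not tested.

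Markers of lymphoid, dendritic and stromal cells were read in the same way. Above the array median were 4 or 5 of 11 T and NK cell markers, 4 or 5 of 6 B cell markers, 2 or 3 of 6 dendritic cell markers and 2 of 6 stromal markers. The summed stromal signal was 459 in Pam3CSK4 then Pam3CSK4 and 523 in Pam3CSK4 then MDP, against 260 to 277 on the other 5 arrays. Dcn, a matrix proteoglycan, carried much of this rise, at 8.03 in Pam3CSK4 then Pam3CSK4 and 6.55 in naive cells with Pam3CSK4. Against naive cells with the same second ligand, the 6 markers had medians of 0.22 in Pam3CSK4 then Pam3CSK4 and 0.23 in Pam3CSK4 then MDP. The summed signal of B cell markers was 993 to 1181 on the pretreated arrays and 1934 to 2067 on the naive ones. Ighm, the IgM heavy chain gene, alone carried this drop, at -2.69 in Pam3CSK4 then Pam3CSK4, -1.89 in MDP then Pam3CSK4, -2.63 in Pam3CSK4 then MDP and -2.00 in MDP then MDP, while the median of the 6 markers was 0.02 to 0.12 in these comparisons. The summed T and NK signal ran from 3242 to 6353 and the dendritic one from 416 to 579 over the 7 arrays. On each array the brightest T and NK marker carried most of that signal, at 11.39 to 12.51, while the median marker read 4.68 to 4.90. The part of all these cells in the Schlafen values was not tested either. The 13 measured housekeeping genes showed no 2-fold difference in any of the comparisons.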

How the data were processed

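Biotin-labelled RNA from 7 macrophage cultures was read on 1 Affymetrix array each. The deposited values are log2 expression per probe set, for which the submitters' processing notes name RMA and affy; versions, and which arrays were normalized together, are not given in the sources used here. The table held 45101 probe sets with no missing values, from 2.95 to 15.1. Control probe sets (64) were left out of gene counts. Gene symbols came from the platform annotation: 34945 probe sets had 1 symbol, 932 several and 9160 none. Each gene was represented by its brightest single-symbol probe set (18193 genes). Differences are pretreated minus naive, or ligand minus unstimulated, log2 values, called at 2-fold, without tests, because each group had 1 array; the number of arrays limits the precision. Every label carries replicate number 2. The members and all gene lists were chosen with earlier results of these data known. Named genes were the members, up to 4 of each list by size (plus Irf7, Ifnb1 and Ccnd1), the 3 nearest profiles and the 3 genes on either side of the cluster. Promoter windows and positions came from RefSeq (GRCm38.p6). Counting was tested on simulated data. Tools were Python 3.11.15, pandas 2.3.3, biopython 1.88, R 4.3.3 and limma 3.58.1.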

Additional observations from a re-analysis of the deposited data

Results flagged for a closer look

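A probe set that names both Slfn4 and Slfn3 (1450322_s_at) was in none of the member counts of the report, and its signal stood above that of the unstimulated array. It was 4.39 higher on the log2 scale in Pam3CSK4 then Pam3CSK4, 2.37 in MDP then Pam3CSK4, 4.09 in Pam3CSK4 then MDP, 1.44 in MDP then MDP and 1.12 in naive cells with Pam3CSK4. Its level was 10.03 in Pam3CSK4 then Pam3CSK4, 8.01 in MDP then Pam3CSK4, 9.73 in Pam3CSK4 then MDP, 7.08 in MDP then MDP, 6.76 in naive cells with Pam3CSK4, 6.51 in naive cells with MDP and 5.64 in unstimulated cells. The probe set of Slfn3 alone stayed below the array median on all 7 arrays. How much of the shared signal came from each gene was not tested.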

How the results depend on the processing

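Of 120 counts of members past a threshold under another setting, 109 stayed within 1.5 times the value reported. The 109 include all counts of members lower, which were 0 in every setting and say little about stability. The 11 that moved were all counts of members higher. With the lowest probe set of each gene, the members at least 2-fold higher were 1 in Pam3CSK4 then Pam3CSK4, 1 in MDP then Pam3CSK4, 1 in MDP then MDP and 2 in naive cells with Pam3CSK4. Slfn1 then rests on a probe set below background, and in naive cells with Pam3CSK4 Slfn5 also falls short of 2-fold, at 0.68. The Slfn1 difference was -0.081 in Pam3CSK4 then Pam3CSK4 and -0.081 in MDP then Pam3CSK4, a reversed sign. At 3-fold, 2 members remained in Pam3CSK4 then MDP and 0 in naive cells with Pam3CSK4 or with MDP. At 1.5-fold, 6 passed in Pam3CSK4 then Pam3CSK4 and 4 in naive cells with MDP. In naive cells with MDP the count was 0 after 32 was added to the linear values and 0 with arrays centred on their medians, because the Slfn8 difference, 1.02, is close to 2-fold. With the brightest or mean probe set, the Slfn1 difference from naive cells ran from 1.07 to 2.21 in MDP then MDP. After centring on housekeeping genes the median difference of all genes was 0.27 in naive cells with Pam3CSK4 and -0.13 in Pam3CSK4 then Pam3CSK4, and within 0.1 of 0 in the other 4 comparisons. No paired analysis was possible because each group is 1 array and all carry the same number.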

Other observations

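The unstimulated array had the lowest value of the 7 for Slfn1, Slfn2, Slfn4, Slfn5, Slfn8 and Slfn9. Slfn2 and Slfn9 were highest in MDP then Pam3CSK4, at 13.96 and 8.95, whereas Slfn1, Slfn4 and Slfn8 were highest in Pam3CSK4 then Pam3CSK4 and Slfn5 in Pam3CSK4 then MDP.

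In naive cells given Pam3CSK4, 3 of the 22 quiescence and proliferation genes were at least 2-fold higher and 3 lower than in unstimulated cells, with Btg2, an early antiproliferative gene, at 1.80 and Ccnd1 at -1.94. With MDP there were 0 either way. Over the whole gene table, the shares past 2-fold with Pam3CSK4 were 2.27% upward and 1.95% downward. With MDP they were 0.583% upward and 0.17% downward, so small that 0 among 22 genes says little.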
